A study of Homo sapiens with 9 samples.

Results

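The genes described here are 10 members of the Notch pathway: the receptors NOTCH1, NOTCH2 and NOTCH3, the ligands DLL1, DLL3, JAG1 and JAG2, the DNA-binding factor RBPJ and its targets HES1 and HEY1. They were chosen by name, as every probe set that the annotation of the Affymetrix HG-U133 Plus 2.0 array pairs with 1 of these symbols alone. This gave 30 of the 54,675 probe sets on the array, for 10 of 19,775 genes. RNA was measured in extracellular vesicles that the human embryonic stem cell (hESC) line H9 released into serum-free and feeder-free mTeSR1 medium. Microvesicles (MVs) were pelleted at 16,500g for 1 hour from medium cleared at 300g and 2800g, and exosomes (EXOs) at 120,000g for 2 hours from what was left. Non-fractionated vesicles (hESEVs) were pelleted at 120,000g for 2 hours from medium that, per the labels, had the 300g spin alone. The published methods differ, with a clearing spin that also removes apoptotic bodies and a faster and longer final spin, so whether these arrays come from medium cleared of apoptotic bodies is not settled. Each group had 3 arrays. All cells were untreated and of 1 line, no array of the cells themselves was used here, and each fraction is defined by its spin and not by a marker.

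In Notch signaling, a DLL or JAG ligand on a cell binds a NOTCH receptor on its neighbour, and proteases then free the receptor's intracellular domain. That domain enters the nucleus and joins RBPJ, which otherwise holds target genes down together with corepressors, and transcription of HES and HEY genes starts. HES1 and HEY1 are themselves repressors, and the pathway is known for fate choices when pluripotent cells differentiate, neural fates among them.

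RBPJ and HES1 were the members with probe sets that passed the test between the vesicle fractions, and HES1 is the textbook target of RBPJ, so their promoters are shown. The sequences are from RefSeq (GRCh38.p14) and hold the 250 bases before the annotated start, 5′ to 3′ on the gene's strand. Capitals mark GTGGGAA or its reverse complement, a core that RBPJ recognises. Both strands were searched for this motif and no other.
HES1, chr3:194135898-194136147, plus strand: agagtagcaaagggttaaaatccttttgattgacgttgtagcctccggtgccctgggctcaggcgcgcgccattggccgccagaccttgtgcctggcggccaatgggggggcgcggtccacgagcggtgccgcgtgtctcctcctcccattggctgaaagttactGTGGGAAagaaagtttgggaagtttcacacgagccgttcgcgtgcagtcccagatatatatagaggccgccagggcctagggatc
RBPJ, chr4:26319496-26319745, plus strand: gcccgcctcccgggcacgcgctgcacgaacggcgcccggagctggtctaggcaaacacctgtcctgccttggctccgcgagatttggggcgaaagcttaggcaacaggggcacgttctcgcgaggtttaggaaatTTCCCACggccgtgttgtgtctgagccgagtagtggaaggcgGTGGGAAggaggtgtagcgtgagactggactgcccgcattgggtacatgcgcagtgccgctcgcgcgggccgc
The HES1 promoter held 1 match, whose first base lies 85 bases before the start. Of the 5 RBPJ promoters in the table, the 1 shown held matches, which begin 115 and 73 bases before its start. Of the 35,116 promoters searched, 5.43% held the motif. Counted by gene, 2 of the 7 members that the table lists had it in at least 1 promoter. The 2 counts are not in like units, since a gene such as RBPJ can have several promoters. A match describes these letters and is not evidence of binding.

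Array signals are on a linear scale, and each array had been scaled to the same trimmed mean of 500. A probe set's level is compared here only between samples, since levels of different probe sets depend on their own probes. As a guide to low signal, the 90th percentile of 84 probe sets for 44 tissue-restricted genes, such as those of liver, muscle or pancreas, was 786 in MVs, 1175 in EXOs and 1191 in hESEVs, and is called the background level. By this guide 9 of the 30 probe sets had a mean above background in MVs, 3 in EXOs and 4 in hESEVs, and 21 were above it in no group. Each mean was set against the level of its own group, so differences between these counts partly follow the level. JAG1 231183_s_at, for example, counted as above background in MVs at 842 but not in EXOs at 906. The share of all probe sets above each level is not given here. Probe sets above background belonged to NOTCH2, JAG1, RBPJ, HES1 and HEY1. No probe set of NOTCH1, NOTCH3, DLL1, DLL3 or JAG2 had a group mean above it, and differences for these genes are between low signals. Arrays measure a share of the RNA in a pellet, so fewer vesicles with a transcript and less of it per vesicle cannot be told apart.

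Between MVs and EXOs, 3 of 30 probe sets passed the test with a higher signal in MVs, 2 for RBPJ and 1 for HES1. The test was limma with a Benjamini-Hochberg adjusted p under 0.05 over all probe sets and a minimum difference of 2-fold. The same criteria called 7.23% of all 54,613 probe sets tested higher in MVs, so the 10% of member probe sets lies near the share for all probe sets. No member probe set passed with a higher signal in EXOs, where 1.97% of all probe sets did. At an unadjusted p the count was 1 by limma and 1 by the methods' t-test, in both cases RBPJ 229540_at. Of all probe sets, 7.03% by limma and 4.85% by the t-test passed in this way. The log2 difference was above 0 for 15 probe sets and below 0 for 15, with a median of 0.03 against -0.29 for all probe sets. Every MVs array lay above every EXOs array for 8 of the 30 probe sets, against 13.3% of all probe sets. Every EXOs array lay above every MVs array for 4 of the 30, against 21.7%.

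**Figure D1:**
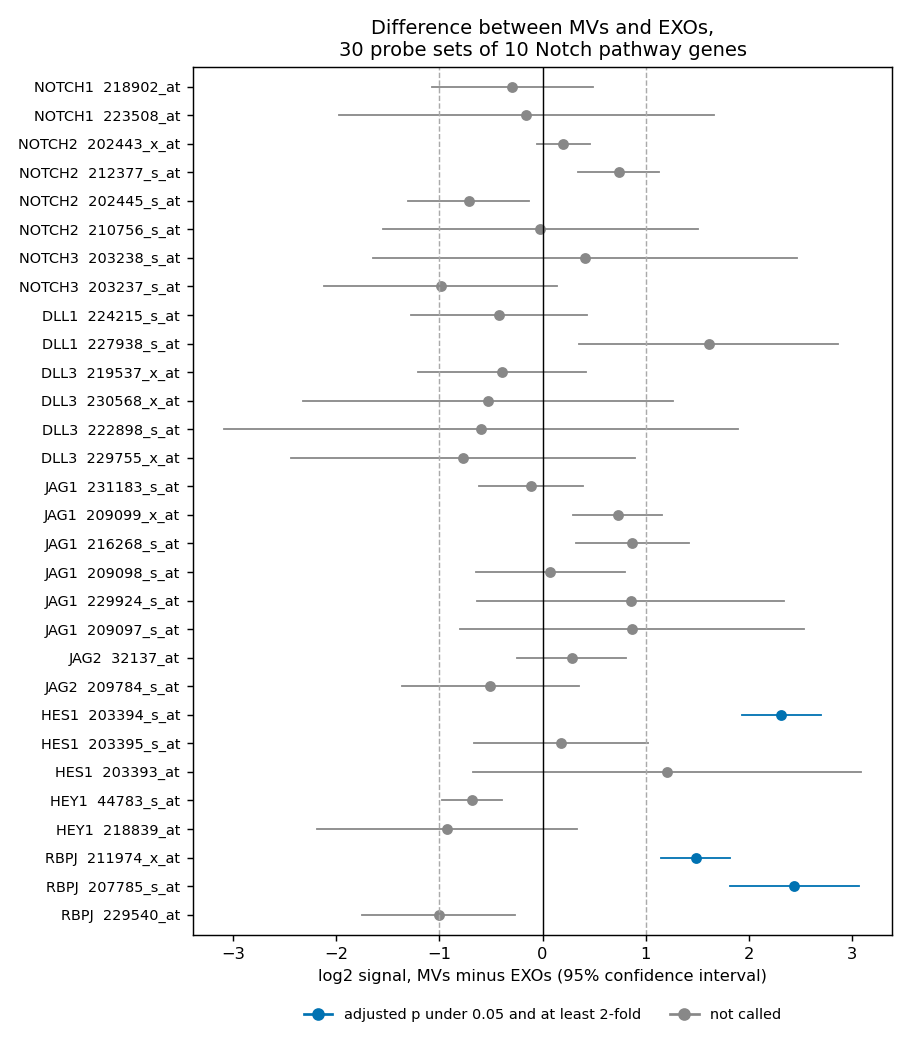
Each row is 1 of the 30 probe sets, and the horizontal axis is the log2 signal in MVs minus EXOs with its 95% confidence interval from limma (3 arrays per group). Dashed lines mark a 2-fold difference, and the 3 blue points, HES1 203394_s_at at 2.31, RBPJ 207785_s_at at 2.44 and RBPJ 211974_x_at at 1.48, passed the test.

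The receptors are single-pass membrane proteins that carry the signal to the nucleus. None of their 8 probe sets passed the test between MVs and EXOs. NOTCH2 was the receptor with signal above background. Its probe set 202443_x_at read 1733, 1781 and 1782 in MVs, 1461, 1660 and 1488 in EXOs, and 1798, 1763 and 1490 in hESEVs. All 9 arrays lay above background and within a narrow range, and the MVs arrays lay just above the EXOs arrays, with a log2 difference of 0.20 (95% confidence interval -0.05 to 0.46, adjusted p = 0.27), which turned to -0.23 under quantile normalization. NOTCH2 212377_s_at read 1355, 1073 and 1079 in MVs, 644, 738 and 710 in EXOs, and 1195, 992 and 694 in hESEVs. Its MVs arrays were the higher ones without overlap, by 0.74 ± 0.17 (SE) on the log2 scale with an adjusted p of 0.030, which is under 2-fold. NOTCH2 202445_s_at had its lower signals in MVs, with 484, 392 and 414 in MVs, 799, 766 and 569 in EXOs and 310, 670 and 475 in hESEVs. Its difference was -0.72 ± 0.25 with an adjusted p of 0.11, so probe sets of this receptor disagreed in direction. A further NOTCH2 probe set, 210756_s_at, gave -0.02 ± 0.66. These 4 probe sets are all marked as shared (names with _s or _x), and RefSeq lists near-identical NOTCH2NL genes, so signals of NOTCH2 and its copies may not be separable. The probe set 227067_x_at, paired with NOTCH2 and 4 NOTCH2NL genes, was left out of the count, with mean signals of 704 ± 65.5 in MVs, 893 ± 97.3 in EXOs and 759 ± 178 in hESEVs (SD over 3 arrays).

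NOTCH1, the receptor first linked to leukemia, read 401, 837 and 423 in MVs, 769, 560 and 606 in EXOs, and 870, 759 and 685 in hESEVs with 218902_at. The groups overlapped, at a log2 difference of -0.29 ± 0.34 (SE), and its other probe set stayed at or below 336 on all 9 arrays. NOTCH3, a receptor best known from vascular smooth muscle, read 177, 236 and 308 in MVs, 44.7, 374 and 325 in EXOs, and 522, 487 and 393 in hESEVs with 203238_s_at. All hESEVs arrays lay above those of both fractions, but the differences did not pass the test (0.99 ± 0.75 from MVs, adjusted p = 0.49, and 1.40 ± 0.75 from EXOs, adjusted p = 0.53). The MVs minus EXOs value of 0.41 ± 0.88 for this probe set rested on the first EXOs array, and was -0.57 without it. NOTCH3 203237_s_at read 36.3, 74.8 and 73.4 in MVs and 141, 113 and 98.1 in EXOs. These low signals did not overlap, but their difference of -0.99 ± 0.49 was no call (adjusted p = 0.23).

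The ligands are membrane proteins presented to the neighbouring cell, except that DLL3 stays largely inside the cell and acts as an inhibitor. None of their 14 probe sets passed the test between MVs and EXOs. At an unadjusted p, 1 of the 22 probe sets of receptors and ligands would have been called by limma and 1 by the methods' t-test, DLL1 227938_s_at in both cases. It was higher in MVs, where 9.81% of all probe sets passed by limma and 8.59% by the t-test without adjustment. JAG1, a ligand of the Jagged family, had 3 probe sets above background. JAG1 209099_x_at read 1372, 1200 and 1153 in MVs, 606, 874 and 789 in EXOs, and 697, 761 and 752 in hESEVs. The MVs arrays stood above all 6 others, by 0.73 ± 0.19 on the log2 scale over EXOs (adjusted p = 0.044) and by less than 2-fold in both comparisons. JAG1 216268_s_at was also highest in MVs, with 987, 865 and 948 in MVs, 512, 653 and 395 in EXOs, and 729, 624 and 691 in hESEVs. Its difference of 0.87 ± 0.24 missed the threshold (adjusted p = 0.053), while centring each array on its median gave 1.11 (adjusted p = 0.018), a call, as did leaving out the second EXOs array (1.05, adjusted p = 0.036).

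JAG1 231183_s_at did not follow them. It read 841, 682 and 1002 in MVs, 807, 809 and 1103 in EXOs, and 1027, 1580 and 1159 in hESEVs. Here the hESEVs arrays were above the MVs arrays (0.57 ± 0.22, adjusted p = 0.17), and MVs and EXOs overlapped (-0.11 ± 0.22), a sign that turned to 0.13 with median centring. The other 3 JAG1 probe sets had group means of 43.1 to 625 and overlapped between MVs and EXOs. JAG2, the second Jagged ligand, read 725, 638 and 761 in MVs, 705, 475 and 584 in EXOs, and 590, 581 and 699 in hESEVs with 32137_at. These values overlapped in all comparisons, with 0.28 ± 0.23 between MVs and EXOs. JAG2 209784_s_at read 322, 441 and 443 in MVs, 756, 351.2 and 680 in EXOs, and 762, 723 and 595 in hESEVs. Its hESEVs arrays lay above the MVs arrays without passing the test (0.79 ± 0.33, adjusted p = 0.19).

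DLL1, a ligand of the Delta family, read 461, 311 and 326 in MVs, 391, 410 and 702 in EXOs, and 608, 389 and 543 in hESEVs with 224215_s_at. The groups overlapped, and the log2 difference of MVs minus EXOs was -0.42 ± 0.37. DLL1 227938_s_at read 213, 80.6 and 197 in MVs, 57.2, 39.1 and 53.0 in EXOs, and 65.4, 190 and 33.5 in hESEVs. The MVs arrays lay above the EXOs arrays by 1.61 ± 0.54 on the log2 scale, but the adjusted p was 0.10 and all signals were far under the background level. DLL3 219537_x_at read 399, 354 and 423 in MVs, 731, 344 and 536 in EXOs, and 358, 466 and 273 in hESEVs. The 4 DLL3 probe sets gave -0.77 to -0.39 between MVs and EXOs with overlapping arrays, and an adjusted p of 0.50 to 0.75.

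**Figure D2:**
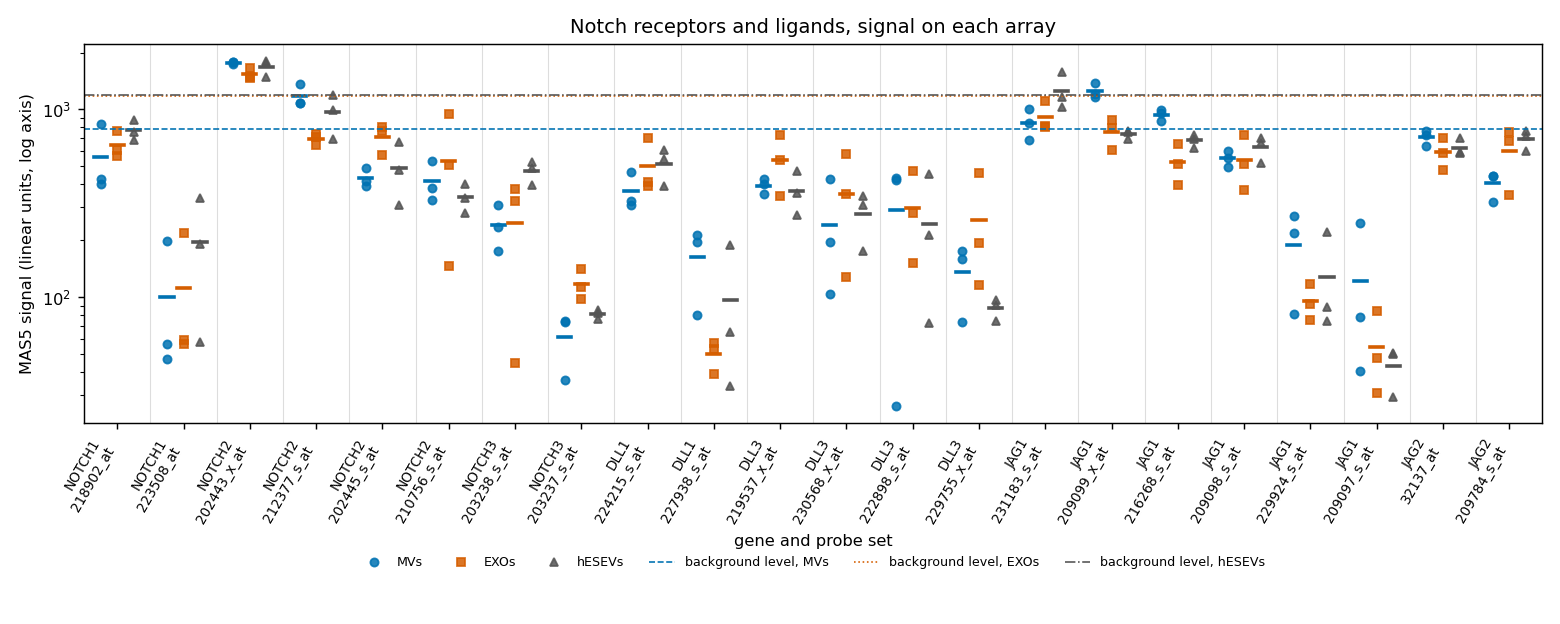
Signals of the 22 receptor and ligand probe sets on the 9 arrays (vertical log axis, linear MAS5 units), with points for arrays, short bars for means of 3 and lines for the background level of each group. NOTCH2 202443_x_at is the probe set with all 9 arrays, 1461 to 1798, above the 3 lines, and most others lie below them.

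RBPJ is the factor on which the signals of all NOTCH receptors meet at the DNA. Its probe set 211974_x_at read 5493, 5996 and 4846 in MVs, 1598, 2134 and 2135 in EXOs, and 2503, 2294 and 2547 in hESEVs. All 9 arrays were above background, and the lowest MVs array was well above the highest of the other groups. In MVs the signal was 2.80-fold that of EXOs (log2 difference 1.48 ± 0.15 (SE), adjusted p = 4.0e-04). The call depended on scaling, since quantile normalization left a difference of 0.34 (adjusted p = 0.33). RBPJ 207785_s_at read 1573, 1507 and 1837 in MVs, 297, 219 and 418 in EXOs, and 476, 530 and 277 in hESEVs. Here MVs alone were above background, and the log2 difference from EXOs was 2.44 ± 0.27 (adjusted p = 7.8e-04), a size that is uncertain because the EXOs signal lies under the background level. It passed under all 14 alternative settings that could be run on it, with values of 2.21 to 2.68.

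RBPJ 229540_at did not share this pattern. It read 311, 497 and 365 in MVs, 725, 590 and 1073 in EXOs, and 487, 376 and 429 in hESEVs. The EXOs arrays were the highest, without overlap, and the log2 difference was -1.01 ± 0.32 (adjusted p = 0.084), which became a call when low probe sets were filtered out (adjusted p = 0.041). This probe set lies under the background level in every group and is the only RBPJ probe set not marked as shared. RefSeq lists RBPJ pseudogenes, so signals of the 2 others may include copies of RBPJ.

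HES1, a basic helix-loop-helix repressor that keeps progenitors from differentiating, had the promoter shown above. HES1 203394_s_at read 1839, 2174 and 2261 in MVs, 436, 448 and 376 in EXOs, and 894, 1022 and 767 in hESEVs. The 3 groups did not overlap, and MVs alone were above background. The log2 difference of MVs minus EXOs was 2.31 ± 0.17 (adjusted p = 6.1e-05), and 2.08 to 2.55 under 14 alternatives, all of them calls. The size of this difference is uncertain, since the EXOs signal lies under the background level. This probe set is marked as shared, so the setting without shared probe sets could not be run on it. HES1 203395_s_at read 865, 476 and 706 in MVs, 664, 367 and 818 in EXOs, and 582, 205 and 565 in hESEVs. Its groups overlapped (0.18 ± 0.36, adjusted p = 0.78). HES1 203393_at read 357, 472 and 321 in MVs, 49.2, 208 and 429 in EXOs, and 198, 224 and 383 in hESEVs. This is the only HES1 probe set not marked as shared. It gave 1.21 ± 0.81 with an adjusted p of 0.37, so 1 of the 3 HES1 probe sets passed the test and the others did not.

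HEY1, a related repressor known from heart and vessel development, had no probe set that passed the test, and both gave negative values for MVs minus EXOs. HEY1 44783_s_at read 1522, 1437 and 1338 in MVs, 2027, 2537 and 2349 in EXOs, and 1892, 1752 and 1884 in hESEVs. All arrays were above background, and the 3 groups did not overlap. The signal was 1.60-fold higher in EXOs than in MVs (log2 difference -0.68 ± 0.13, adjusted p = 0.012), which is under 2-fold and so no call, and quantile normalization made it one, at -1.33 (adjusted p = 0.0010). HEY1 218839_at read 277, 389 and 211 in MVs, 249, 683 and 917 in EXOs, and 969, 546 and 634 in hESEVs. The EXOs arrays spread widely here, at -0.93 ± 0.54 (adjusted p = 0.31).

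**Figure D3:**
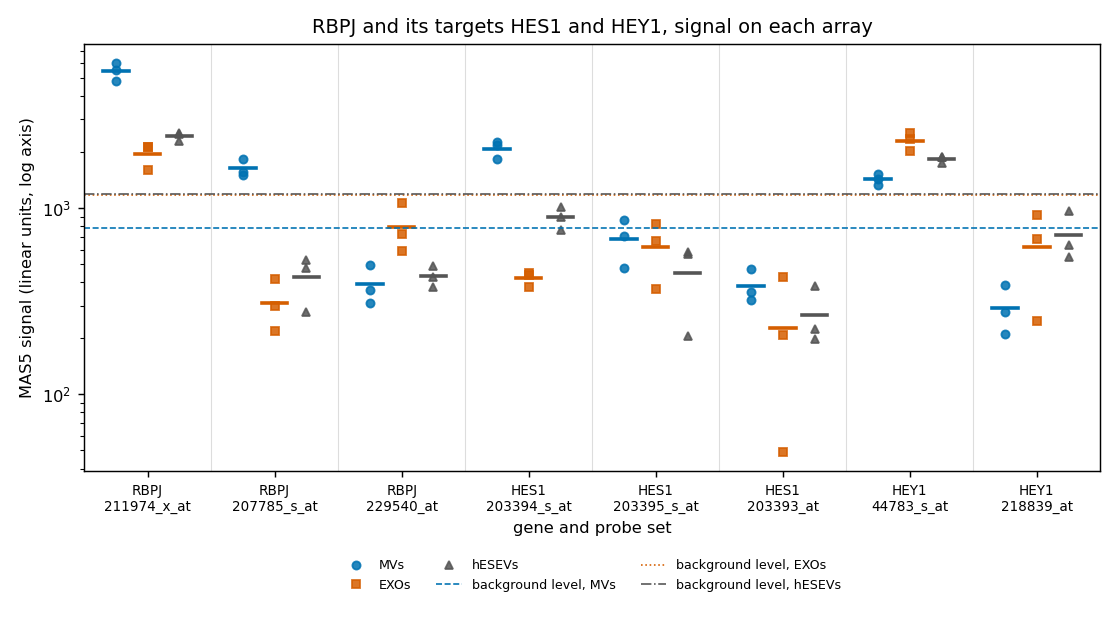
Signals of the 8 probe sets of RBPJ, HES1 and HEY1 on the 9 arrays (vertical log axis, linear MAS5 units), with points for arrays, short bars for means of 3 and lines for the background level of each group. MVs stand above EXOs for RBPJ 211974_x_at, RBPJ 207785_s_at and HES1 203394_s_at, and below them for HEY1 44783_s_at and RBPJ 229540_at.

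The comparisons of hESEVs with the fractions used all 9 arrays in the fit, so they share their arrays with each other and with the one above. The same 3 probe sets of RBPJ and HES1 were lower in hESEVs than in MVs, 10% of the member probe sets against 4.25% of all probe sets. For RBPJ the log2 differences, hESEVs minus MVs, were -1.15 ± 0.14 (SE) with 211974_x_at (adjusted p = 3.3e-04) and -1.99 ± 0.32 with 207785_s_at (adjusted p = 0.0032), and quantile normalization reduced the first to -0.20. The second was no call by the adjusted t-test. For HES1 203394_s_at it was -1.23 ± 0.18 (adjusted p = 0.0014), and -0.93, under 2-fold, after quantile normalization. No member probe set was called higher in hESEVs than in MVs, against 1.05% of all probe sets. At an unadjusted p 1 was, HEY1 218839_at, by limma and by the methods' t-test (1.29 ± 0.48, adjusted p = 0.15 by limma). Without adjustment, 5.05% of all probe sets passed in this direction by limma and 3.19% by the t-test.

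Between hESEVs and EXOs, HES1 203394_s_at was the single call among 30 probe sets, higher in hESEVs, where 1.95% of all probe sets were. The log2 difference was 1.08 ± 0.18 (adjusted p = 0.0059), with the means of both groups under the background level. The call was lost without the second hESEVs array (0.98), with a fit of these 6 arrays alone (adjusted p = 0.081) and without the variance trend (adjusted p = 0.061). RBPJ differed from EXOs by 0.34 ± 0.14 with 211974_x_at (adjusted p = 0.36) and 0.46 ± 0.32 with 207785_s_at (adjusted p = 0.66). No member probe set was called lower in hESEVs than in EXOs by limma, with or without adjustment, or by the methods' t-test. Of all probe sets, 0.103% were by limma, and 2.18% by limma and 1.21% by the t-test at an unadjusted p. No receptor or ligand probe set was called in either comparison with hESEVs, by limma or the t-test, also at an unadjusted p.

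Other genes of the pathway were taken from a list of 57, of which 53 were measured with a probe set of their own and the others were not analysed here. Each gene was represented by its probe set with the highest mean. Of the 53, 6 were higher in MVs than in EXOs, 11.3% against 11.6% of all genes. In all 6 the MVs mean was above the background level and the EXOs mean was not, so the sizes of these differences are uncertain. None was higher in EXOs, against 2.77% of all genes. At an unadjusted p this count was 3 by limma (NEURL1, HES2 and DLK1) and 1 by the methods' t-test. Of all genes, 6.47% by limma and 4.55% by the t-test passed in this way. The median log2 difference was -0.14, against -0.23 for all genes.

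Corepressors that RBPJ holds at silent targets gave 3 of the 6 calls, from 9 measured, where 11.6% of all genes were called higher in MVs. The roles are short lists, and their counts were not compared by a test. HDAC2, a histone deacetylase, read 3632, 3806 and 3829 in MVs, 220, 214 and 504 in EXOs, and 885, 837 and 561 in hESEVs. The MVs arrays lay far above the others, at 3.71 ± 0.32 on the log2 scale over EXOs (adjusted p = 6.8e-05), with EXOs and hESEVs under the background level. Averaging all HDAC2 probe sets gave 1.52, and without the second MVs array another probe set of the gene had the highest mean, with -0.39. Its paralog HDAC1 read 1610, 1951 and 1548 in MVs and 631, 380 and 549 in EXOs, a difference of 1.74 ± 0.23 (adjusted p = 9.7e-04). CTBP1, a corepressor that binds other repressors of the complex, was also called (1.15 ± 0.17, adjusted p = 0.0020). HDAC1, HDAC2 and CTBP1 act in many complexes besides that of RBPJ.

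Coactivators gave 1 call from 8, where 11.6% of all genes were called higher in MVs. SNW1, which binds both RBPJ and the receptor's intracellular domain and is also a splicing factor, differed by 1.05 ± 0.14 (adjusted p = 0.0011), and fell under 2-fold with quantile normalization (0.89), averaged probe sets (0.70) or without the third EXOs array (1.00, just below the limit). MAML2, a Mastermind protein that joins the complex of RBPJ and the intracellular domain, differed by -0.58 ± 0.13 (adjusted p = 0.014) and was not called, but quantile normalization gave -1.46 (adjusted p = 1.4e-04), a call.

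Proteases gave 2 calls from 8, against the same 11.6% of all genes. ADAM10, which makes the first cut after a ligand has bound, read 1532, 1249 and 1922 in MVs and 693, 621 and 1066 in EXOs. Its difference of 1.00 ± 0.25 (adjusted p = 0.025) sat at the 2-fold limit, and was lost without MVs replicate 1 or 3 or EXOs replicate 1 or 2, with a floor of 100, without the variance trend, with quantile normalization (0.90) or with averaged probe sets (0.20). PSENEN, a subunit of the γ-secretase that makes the next cut, read 662, 1026 and 787 in MVs and 478, 278 and 306 in EXOs. Its difference of 1.24 ± 0.33 (adjusted p = 0.033) was no call in the fit of all 9 arrays (adjusted p = 0.10) or without any of the 6 arrays but EXOs replicate 1. By the adjusted t-test neither protease was called.

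No call was made among 11 genes of endocytosis and turnover, 5 glycosyltransferases of the receptor, 8 further targets and 4 further receptors and ligands. Of all genes, 11.6% were called higher in MVs and 2.77% higher in EXOs, so few calls would fall in lists this short. FBXW7, which marks the intracellular domain for degradation, read 1004, 1207 and 894 in MVs and 2019, 1644 and 1737 in EXOs. The arrays did not overlap, at -0.80 ± 0.16 (adjusted p = 0.0094), under 2-fold, and quantile normalization made it a call at -1.15 (adjusted p = 0.0019), while averaging the gene's probe sets gave 0.06. MIB1, the ubiquitin ligase that drives ligand endocytosis, gave 0.54 ± 0.17 (adjusted p = 0.058), and -0.09 with averaged probe sets. RFNG and POGLUT1, which add sugars to the receptor, gave -0.14 ± 0.31 and -0.15 ± 0.32, and both turned above 0 with median centring. Among targets, HES2 gave -1.31 ± 0.55 (adjusted p = 0.13) and HES6, a family member that opposes HES1, 0.93 ± 0.51 (adjusted p = 0.24). DLK1, a non-canonical ligand, gave -1.14 ± 0.35 (adjusted p = 0.052), and 0.29 without shared probe sets. It became a call in the fit of 9 arrays (adjusted p = 0.027), with the filter on low signals (0.019), a floor of 1 (0.040), the replicate block (0.042) or without MVs replicate 1 (-1.47, adjusted p = 0.024). DLK2 gave -0.24 ± 0.34.

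**Figure D4:**
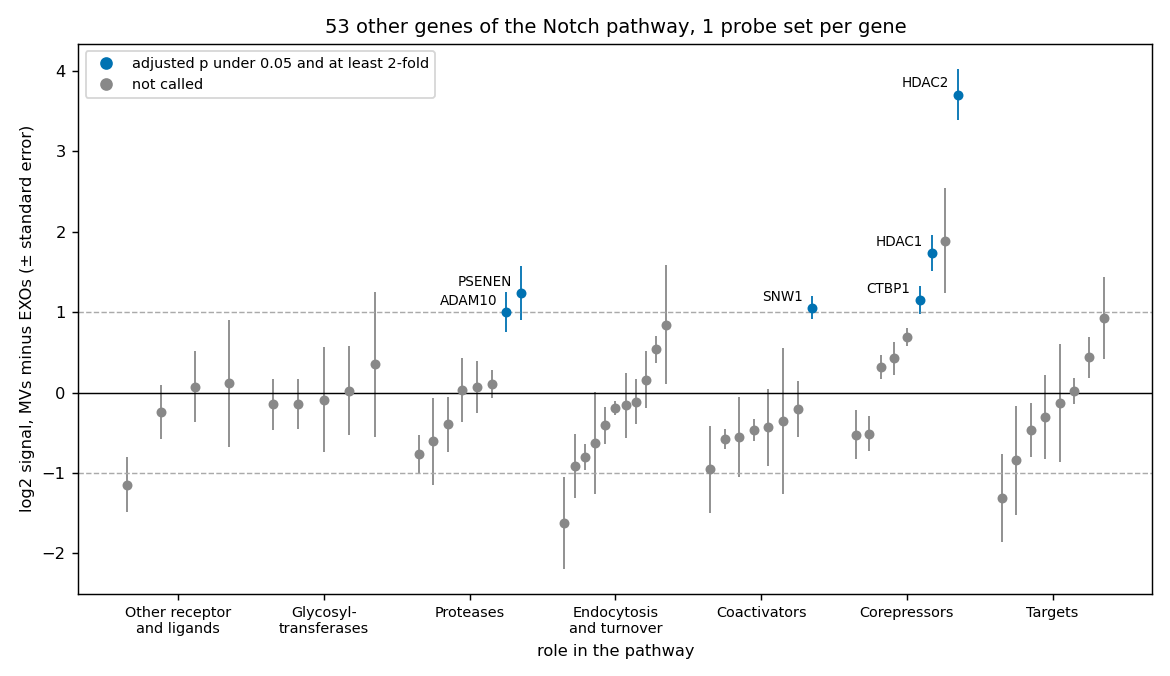
Each point is 1 of 53 other pathway genes, grouped by role, with the log2 signal in MVs minus EXOs and its standard error on the vertical axis (3 arrays per group). The 6 named blue points passed the test, from HDAC2 at 3.71 to ADAM10 at 1.00, and dashed lines mark a 2-fold difference.

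Other measures moved with the groups. All 7 pluripotency markers measured (SOX2, NANOG, LIN28A, DNMT3B, L1TD1, ZFP42 and SALL4) were higher in MVs than in EXOs. By the adjusted t-test 5 of them were, without SOX2 and ZFP42, and OCT4 was not on the list. Of all genes, limma called 11.6% higher in MVs and 2.77% higher in EXOs, and 13.8% and 6.47% at an unadjusted p. The summed signal of the 7 markers in MVs, EXOs and hESEVs was 51,989 to 53,686, 10,685 to 13,406 and 15,542 to 18,198. Of 5 neural progenitor markers, a cell type that also uses Notch, none was higher in MVs by limma, adjusted or not. SOX1 was called higher in EXOs at means under the background level in every group (160 ± 76.6 in MVs and 605 ± 173 in EXOs, SD over 3 arrays). That call was lost by the adjusted t-test, and in the fit of 9 arrays another probe set stood for SOX1, with means of 349 in MVs and 338 in EXOs. Sums of the 5 neural markers overlapped, at 2493 to 2755, 1990 to 3625 and 1777 to 2968 in the same order. They are mostly low signal, with 1, 1 and 0 of the 5 means above background, against 7, 5 and 6 of the 7 pluripotency markers. Of 5 mesoderm and endothelium markers KDR was called higher in MVs, at 1.29 on the log2 scale over EXOs. PECAM1 (-0.56), CDH5 (-0.58), TBXT (-0.76) and MESP1 (-1.72) went the other way and were not called. At an unadjusted p limma, but not the t-test, called MESP1 higher in EXOs, with low signal in every group. Sums of the 5 were 2893 to 3160, 2954 to 4196 and 3253 to 3378, with 2, 1 and 1 means above background. Of 3 endoderm markers none was called in either direction, adjusted or not, between MVs and EXOs. Their sums were 1082 to 1279, 1758 to 2146 and 631 to 1461, with 0 means above background in each group. The 3′ to 5′ signal ratio of GAPDH, which RNA integrity and labelling affect, was 2.88 to 2.90, 1.39 to 1.71 and 1.89 to 2.22. That of ACTB was 22.5 to 25.2, 5.64 to 6.80 and 8.48 to 10.2. By electrophoresis the published study found long RNAs in MVs, while EXOs were rich in small RNAs only. The lower ratios in EXOs are therefore not read here as more intact RNA. The part of these measures in the differences of RBPJ, HES1 and HEY1 was not tested. Array medians were 358 to 365, 422 to 430 and 415 to 421. Of all calls between MVs and EXOs, 78.6% were higher in MVs, against 73.1% with quantile normalization and 93.4% when each array was centred on its median. That centring moved the median difference of all probe sets from -0.29 to -0.06. Of all calls between hESEVs and MVs, 19.8% were higher in hESEVs, against 6.47% with centring and 32.7% with quantile normalization, and between hESEVs and EXOs 95% were higher in hESEVs, against 81.2% with quantile normalization.

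Genes with a pattern like those of HES1, RBPJ and HEY1 were looked up over the 9 arrays among 6111 genes above background in at least 1 group, by Pearson's r of log2 signals. HES1 203394_s_at was most like MT2A, a metallothionein (r = 0.996), ZNF827 (r = 0.995) and TXNL4A, a spliceosome protein (r = 0.995). For RBPJ 211974_x_at they were SDCBP, also called syntenin and known from exosome formation (r = 0.992), SMS, spermine synthase (r = 0.991), and PPP1R9A (r = 0.991). For HEY1 44783_s_at the nearest were HAUS5 (r = 0.969), SYMPK (r = 0.965) and ACSS1 (r = 0.965). An r above 0.95 was found for 685 genes with HES1, 433 with RBPJ and 7 with HEY1. These counts depend on which genes were compared and are not a result about the members. A gene could enter through MVs alone, where HES1 and RBPJ were high and the background level was lowest (786, against 1175 in EXOs and 1191 in hESEVs). These values are descriptions over 3 groups of 3 arrays, in which any gene that differs between the groups in the same order has a high r.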

How the data were processed

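RNA of MVs, EXOs and hESEVs from H9 cells was hybridised to 9 arrays, 3 per group. The authors summarised the scans with MAS5 (version not given in the sources used here) and deposited 1 linear intensity for each probe set, scaled to a target of 500; the mean without the lowest and highest 2% of each array was 500. The RMA values of the published comparison were not used here. No genome build is named for the array values.

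Groups were taken from sample titles. The number of arrays limits the precision. The published text gives the MVs and EXOs arrays a common set of hESC cultures, without saying which arrays share a culture. A pairing of MVs with EXOs arrays is therefore possible but not known, and the main fit used none. The published text calls the hESEVs samples biological too, but does not say whether they came from separate cultures. How far the p-values for hESEVs reflect spread between cultures is therefore not known. The first clearing spin is also given as 200g in descriptions of MVs.

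Signals under 32 were raised to 32 and log2 was taken, and 62 control probe sets were left out. MVs and EXOs were compared on 6 arrays and hESEVs with each fraction on 9, with limma 3.58.1 in R 4.3.3 (lmFit, eBayes with a trend, two-sided), adjusted by Benjamini-Hochberg over 54,613 probe sets, or 19,775 genes for the other pathway genes and markers. Fold changes are on this floored log2 scale. Scripts were tested on simulated data. The methods' t-test was run on the same values, and other scaling, floors, filters, fits and left-out arrays were alternatives.

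In the array annotation, 41,091 probe sets had 1 gene, 1801 several and 11,721 none. All 10 members were found in RefSeq's gene table. Genes named are every member, the 2 genes of each role with the smallest p, and the 3 genes most like HES1, RBPJ and HEY1. CTBP1, NEURL1, KDR, SOX1, PECAM1, CDH5, TBXT and MESP1 were named after their values were seen. Members, lists and tests were chosen with earlier results of these data known. Columns of per-sample values left unused numbered 0.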

Additional observations from a re-analysis of the deposited data

How the results depend on the processing

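Of 146 alternative values for the counts, 123 stayed within 1.5 times the main count, and of 720 for single probe sets or genes 656 kept their direction and their side of the threshold. The 3 member probe sets higher in MVs than in EXOs became 0 without shared probe sets, where 6 member probe sets were left to test. So did the 3 higher in MVs than in hESEVs, which quantile normalization reduced to 1. All of these called probe sets are marked as shared, so the setting without shared probe sets removed them and could not call them. The same holds for HES1 203394_s_at, the call between hESEVs and EXOs. The 0 member probe sets higher in EXOs became 1 with quantile normalization (HEY1 44783_s_at) and 1 with the filter on low signals (RBPJ 229540_at). At an unadjusted p this count was 1 by limma and 1 by the t-test. The 0 higher in hESEVs than in MVs became 1 at an unadjusted p by limma and 1 by the t-test. The 1 higher in hESEVs than in EXOs became 0 without the trend, by the adjusted t-test, without shared probe sets and in a fit of 6 arrays, and 0 to 1 with an array left out (0 without hESEVs replicate 2). The 6 other pathway genes higher in MVs became 3 with quantile normalization. The 0 higher in EXOs became 4 with quantile normalization, 2 with the filter, 1 with a floor of 1, with the replicate block or with 9 arrays, 3 at an unadjusted p, 1 by the unadjusted t-test and 0 to 1 with an array left out (1 without MVs replicate 1).

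Directions turned, for values that were not called, in NOTCH1 223508_at (quantile 0.058, median centring 0.077, arrays left out -0.81 to 0.49), NOTCH2 202443_x_at (quantile -0.23), NOTCH2 210756_s_at (quantile 0.12, centring 0.21, arrays left out -0.77 to 0.58), JAG1 231183_s_at (centring 0.13, arrays left out -0.24 to 0.04), FBXW7 (averaged 0.065), MIB1 (averaged -0.087), RFNG (quantile 0.084, centring 0.090), POGLUT1 (centring 0.086, arrays left out -0.39 to 0.13) and DLK1 (0.29 without shared probe sets). With an array left out they also turned in NOTCH3 203238_s_at (-0.57 to 0.96), DLL3 222898_s_at (-1.23 to 0.65), JAG1 209098_s_at (-0.17 to 0.33) and HES1 203395_s_at (-0.16 to 0.42). HDAC2, which was called, ranged from -0.39 to 4.11, the lowest from another probe set. The cause of the other changes was not tested.

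Deviations of arrays with the same replicate number correlated by -0.01 to 0.01, and no source says that equal numbers share a culture, so they were not taken to pair the arrays. With the replicate block, 3524 probe sets were higher in MVs and 575 in EXOs, against 3949 and 1078; PSENEN was lost (adjusted p = 0.074), DLK1 was gained (adjusted p = 0.042) and no member's call changed. Without adjustment, 5357 and 3840 passed, by the adjusted t-test 2644 and 445, and with median centring 4765 and 336. Low signal limits most receptors and ligands, 21 of 30 member probe sets being under the background level in each group.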
